A study of Mus musculus with 72 samples.

Results

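Transcripts of chemokine receptors carried by blood leukocytes were measured in mice exposed to neutrons or x-rays. The 9 receptors are Ccr1, Ccr2, Ccr3, Ccr6, Ccr9, Cxcr3, Cxcr4, Cxcr5 and Cxcr6, found by their gene symbol among the 31093 genes named on the array, each read from its brightest probe, and all 9 are among the 19816 genes that were bright enough to be tested. The study asked how the gene expression response of blood differs between neutrons and x-rays. Young adult male C57BL/6 mice were given whole-body doses of 0.25 or 1 Gy of neutrons from a beam that also carries gamma rays, 1 or 4 Gy of x-rays, or a sham exposure, and blood was drawn by cardiac puncture on day 1, 3 or 7 into a lysing tube that fixes RNA at once. Each of the 72 arrays holds globin-reduced RNA of 1 animal. On day 1 there were 5 controls, 6 mice at 0.25 Gy neutrons, 6 at 1 Gy neutrons, 6 at 1 Gy x-rays and 5 at 4 Gy x-rays. On day 3 there were 5 controls, 6 mice at 0.25 Gy neutrons and 5 at 1 Gy x-rays, and on day 7 there were 6 controls, 5 mice at 0.25 Gy neutrons, 6 at 1 Gy neutrons, 5 at 1 Gy x-rays and 6 at 4 Gy x-rays. Groups are those of the labels, which the names of the 72 per-array files matched, but a table of processed values from the same study paired 60 of its 72 columns with another sample's array, 21 of them of another group, and which source is mislabelled could not be settled. All animals were of the same strain and sex, and p-values measure the spread between these mice.

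Chemokine receptors are G protein-coupled receptors that steer white blood cells along gradients of small secreted proteins, the chemokines, into and within tissues. Because each receptor is carried by a limited set of cell types, its transcript in whole blood follows both the number of those cells and how much of the transcript each cell holds. Cxcr5 guides B cells into lymphoid follicles and Ccr6 is carried by B cells and some T cells, Cxcr3 and Cxcr6 by activated T cells and NK cells, Ccr9 by gut-homing lymphocytes, Ccr1 and Ccr2 by monocytes and other myeloid cells, Ccr3 by eosinophils and basophils, and Cxcr4 by nearly all leukocytes. From RNA levels of these bulk samples alone, fewer cells of a type and less RNA per cell cannot be told apart. The study also took blood counts and reported total counts in the normal range, in controls and after irradiation, for the days it describes. It reported no significant change in cell death or in the make-up of white blood cells after irradiation. Counts of single mice were not part of the data used here, and receptor levels were not tested against them.

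Levels are given as log2 of the background-corrected fluorescence of the probe over the median of its array, so a level of 1 lies 2-fold above the array's median, and levels of different genes are not set against each other. A difference was called changed when limma's p was under 0.001 and its Benjamini-Hochberg false discovery rate over all 19816 genes was under 0.05. Probes of 8 receptors were well above background on all 72 arrays, and the Ccr1 probe on 63 of them. The share of spots well above background was 40.2 to 67.3% over the arrays and was lowest after 1 Gy neutrons on day 7 (40.2 to 50.3%). The array of replicate 5 of the mice given 0.25 Gy neutrons on day 1 stood apart. It had the lowest level of its group for all 9 receptors. For that group the number of receptors called, their median change and the changes of Ccr6 and Cxcr5 are given with and without it. Other values of the group include it. The blood held the defining transcripts of its main white cells, since all 10 B cell markers, all 13 T cell markers and all 7 NK cell markers listed could be tested. It also held liver transcripts to a varying degree: the mean log2 level of 10 hepatocyte markers ran from -1.33 to 6.19 in the controls of day 1 and from -4.23 to -1.92 in the controls of day 7.

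Promoter sequences of Ccr6, which had the widest range of levels, and of Cxcr3 and Cxcr6, which were called higher in the same 2 comparisons, are shown first. Promoters, here the 250 bases before the start of a transcript in RefSeq's mouse assembly GRCm38.p6, were found for 8 of the 9 receptors, with 9 promoters in all, and not for Cxcr5. The octamer ATTTGCAT, which POU factors of B cells bind, was searched on both strands and was present in 526 of 32851 promoters (1.6%), of which 1 belonged to a receptor, being 1 of the 2 promoters of Ccr6. The RUNX core TGTGGT, searched on both strands and bound by factors active in T and NK cells, was present in 4614 promoters (14%) and in 3 of the 9 receptor promoters, those of Ccr1, Cxcr3 and Cxcr6. A match of letters is a description of the sequence and not a bound site. The promoter of Ccr6 (chr17:8235793-8236042, plus strand), the receptor with the widest range of levels, has the octamer in capitals 68 bases before the start. The promoters of Cxcr3 (chrX:101734148-101734397, minus strand) and Cxcr6 (chr9:123806227-123806476, plus strand), receptors that rose together, are printed with the RUNX core, here as its reverse complement ACCACA, in capitals 110 and 10 bases before the start.
Ccr6: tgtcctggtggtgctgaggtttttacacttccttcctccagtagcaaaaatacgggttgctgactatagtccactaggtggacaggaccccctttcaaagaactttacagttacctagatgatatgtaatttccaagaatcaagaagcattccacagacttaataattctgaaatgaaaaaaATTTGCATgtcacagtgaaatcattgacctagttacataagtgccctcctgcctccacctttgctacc
Cxcr3: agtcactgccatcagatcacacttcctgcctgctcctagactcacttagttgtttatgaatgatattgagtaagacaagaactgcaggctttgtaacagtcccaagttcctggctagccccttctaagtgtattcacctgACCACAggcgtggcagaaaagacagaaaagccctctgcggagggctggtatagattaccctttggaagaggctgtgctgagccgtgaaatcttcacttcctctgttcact
Cxcr6: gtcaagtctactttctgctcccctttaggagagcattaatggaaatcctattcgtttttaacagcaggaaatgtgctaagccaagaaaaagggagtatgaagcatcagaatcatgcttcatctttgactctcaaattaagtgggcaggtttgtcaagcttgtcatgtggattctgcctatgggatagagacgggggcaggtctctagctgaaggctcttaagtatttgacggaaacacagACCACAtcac

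The receptors of B cells fell most widely. In the 10 comparisons with controls of the same day, Ccr6 and Cxcr5 were each called lower in 6, Ccr9 was called lower in 2, Cxcr3 and Cxcr6 were each called higher in 2, Ccr1 and Ccr2 were each called higher in 1, and Ccr3 and Cxcr4 were called in none. On day 1, none of the 9 was called after 0.25 Gy neutrons, where 0.0101% of all genes were (2 receptors had an unadjusted limma p under 0.05), and 1 did not overlap between groups, against 2.8% of all genes. None was called there without replicate 5 either. After 1 Gy neutrons 4 were called (1 higher, 3 lower), against 13.9% of all genes, and 3 did not overlap, against 17.9%. The same number was called after 1 Gy x-rays (2 higher, 2 lower), against a background of 5.4%, and 3 did not overlap, against 8.23%. At 4 Gy x-rays 3 were called, all lower, which is near the background of 26.9%, and 4 did not overlap, near the background of 38%. The median change of the 9 receptors on day 1 was -0.62, -0.50, -0.38 and -1.07 in these 4 comparisons, beside 0.05, -0.02, 0.01 and -0.02 over all genes tested. Without replicate 5 of the 0.25 Gy neutron group the first of these was -0.32.

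None of the 9 was called on day 3, neither after 0.25 Gy neutrons (0.00505% of all genes called) nor after 1 Gy x-rays (0.409%), and limma's unadjusted p was under 0.05 for 5 and 3 receptors. Groups did not overlap for 2 receptors after neutrons, against 5.3% of all genes, and for 1 after x-rays, against 6.77%. On day 7 none was called after 0.25 Gy neutrons, where 0.0252% of all genes were and 2 receptors had an unadjusted p under 0.05, and 1 did not overlap, against 4.34%. For 1 Gy neutrons 2 were called lower, a share below the background of 31.4%, and 3 did not overlap, near the background of 31.1%. Mice given 1 Gy x-rays had 2 receptors called lower, against 2.94% of all genes, and 2 without overlap, against 6.48%. With 4 Gy x-rays 5 receptors were called (3 higher, 2 lower), against 13.8%, and 5 did not overlap, against 14.7%. The plot of fold changes sets the receptors side by side.

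**Figure D1:**
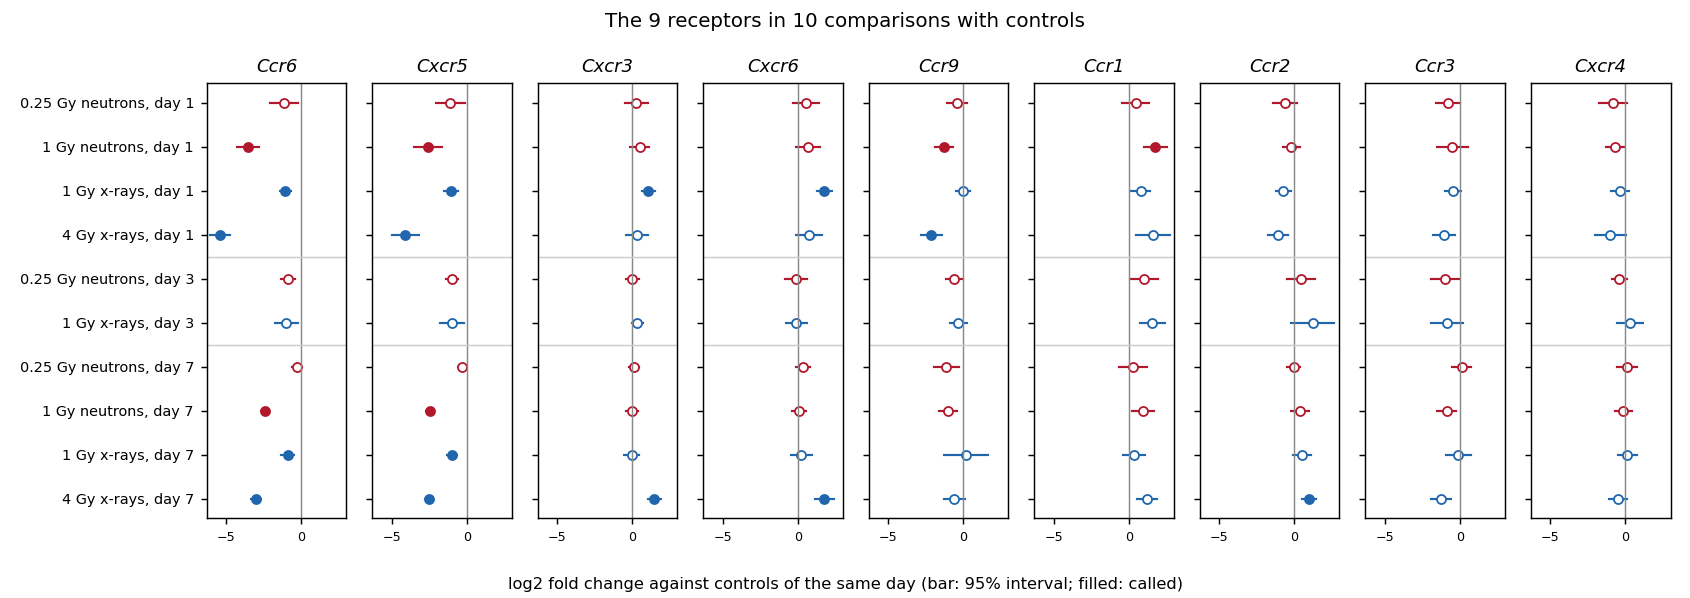
Each panel is 1 receptor, the x axis is its log2 fold change against controls of the same day, and the rows are the 10 exposures by day, neutrons in red and x-rays in blue; bars are 95% intervals and filled points are called changes. Ccr6 and Cxcr5 lie to the left of 0 in all rows, down to -5.44 and -4.09 after 4 Gy x-rays on day 1, while Cxcr3 and Cxcr6 have filled points to the right of 0 after 1 Gy x-rays on day 1 and 4 Gy x-rays on day 7.

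Ccr6, the receptor for the chemokine Ccl20, was read by a probe at chr17:8449933-8449992 (mm9). Its log2 levels in the 5 controls of day 1 were 3.26, 3.16, 3.06, 2.96 and 3.29. In the 5 mice given 4 Gy x-rays they were -1.92, -3.33, -2.67, -1.54 and -1.99 on that day, and in the 6 mice given 1 Gy neutrons they ran from -1.55 over a median of -0.28 to 0.53. Every mouse of both exposed groups was below every control. The fall at 4 Gy x-rays was 5.44 on the log2 scale (SE 0.305, 43.4-fold lower, adjusted p = 2.82e-06 by limma), and that at 1 Gy neutrons was 3.55 (SE 0.335, 11.7-fold lower, adjusted p = 0.000144). The 6 mice given 1 Gy x-rays had levels of 1.53 to 2.34 (median 2.19), again all below the controls, with a log2 change of -1.06 (SE 0.158, adjusted p = 0.00377). The 6 mice given 0.25 Gy neutrons ran from 0.005 to 2.74 (median 2.35) and did not overlap with controls either, but the change of -1.16 (SE 0.423) was not called (adjusted p = 0.259). Without the array that stood apart that change was -0.76 and still not called (adjusted p = 0.0991). On day 1 Ccr6 was thus highest in controls and lower in mice given 1 Gy x-rays or 0.25 Gy neutrons, which overlapped and whose order differed between mean and median. It was lower again at 1 Gy neutrons, which overlapped with 0.25 Gy neutrons only through replicate 5 of the latter, and lowest at 4 Gy x-rays, which overlapped barely with 1 Gy neutrons (-1.54 against -1.55).

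On day 7 the Ccr6 levels of the 6 controls ran from 2.30 to 2.75 (median 2.60). The 6 mice given 1 Gy neutrons lay between -0.04 and 0.21 (median 0.11) and the 6 given 4 Gy x-rays between -0.69 and 0.06 (median -0.55). Both groups lay wholly below the controls. The log2 changes were -2.45 for neutrons (SE 0.121, 5.47-fold lower, adjusted p = 3.42e-07) and -3.02 for x-rays (SE 0.147, 8.12-fold lower, adjusted p = 1e-07). The 5 mice given 1 Gy x-rays had 1.65, 1.85, 1.95, 1.90 and 0.88, all below the controls, with a log2 change of -0.91 (SE 0.196, 1.88-fold lower, adjusted p = 0.028). That Ccr6 call was lost without control replicate 1, 2, 3, 4 or 5 or x-ray replicate 1 or 2, with adjusted p of 0.0403 to 0.0656. Those given 0.25 Gy neutrons had 2.45, 2.46, 2.49, 1.84 and 2.15 and overlapped with the controls. On day 3 the controls had 3.32, 2.81, 3.12, 2.83 and 3.04, the 6 mice given 0.25 Gy neutrons ran from 1.45 to 2.56 (median 2.26), and those given 1 Gy x-rays had 0.80, 2.25, 2.70, 2.63 and 1.70. Neither day 3 group overlapped with its controls, yet the changes of -0.89 (adjusted p = 0.0676) and -1.01 (adjusted p = 0.177) were not called.

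Cxcr5, the receptor for Cxcl13 that draws B cells into follicles, was read by a probe at chr9:44320071-44320130. The controls of day 1 had log2 levels of 3.87, 3.74, 3.75, 2.85 and 3.74. The 5 mice given 4 Gy x-rays had -1.45, -1.21, 0.51, -0.77 and 0.45, and the 6 given 1 Gy neutrons ran from -0.83 to 1.79 (median 1.28). No mouse of these groups reached the lowest control. The levels fell by 4.09 on the log2 scale with 4 Gy x-rays (SE 0.41, 17-fold lower, adjusted p = 5.86e-05) and by 2.60 with 1 Gy neutrons (SE 0.428, 6.05-fold lower, adjusted p = 0.00182). In the 6 mice given 1 Gy x-rays, at 2.17 to 2.96 (median 2.51), the highest mouse lay above the lowest control, and the log2 change was -1.06 (SE 0.207, adjusted p = 0.011). This Cxcr5 call was lost without control replicate 1, 2, 3 or 5 or x-ray replicate 4, with adjusted p of 0.0222 to 0.037. The change at 0.25 Gy neutrons was -1.09 (adjusted p = 0.295), and -0.69 (adjusted p = 0.153) without the array that stood apart, and was not called.

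The day 7 controls had Cxcr5 levels of 3.38 to 3.69 (median 3.61). The 1 Gy neutron group lay at 0.83 to 1.32 (median 1.11) and the 4 Gy x-ray group at 0.83 to 1.43 (median 0.94), both far below all controls and overlapping each other. Their log2 changes were -2.47 (SE 0.126, 5.55-fold lower, adjusted p = 3.91e-07) and -2.52 (SE 0.135, 5.73-fold lower, adjusted p = 1.77e-07). At 1 Gy x-rays the 5 mice had 2.63, 2.63, 2.87, 2.77 and 2.08, all below the controls, and the log2 change was -0.99 (SE 0.15, 1.99-fold lower, adjusted p = 0.00608). At 0.25 Gy neutrons they had 3.37, 3.14, 3.27, 3.28 and 3.07, which was below every control by a small margin, and the change of -0.36 was not called (adjusted p = 0.105). On day 3 the change after 0.25 Gy neutrons was -1.01 (SE 0.182) and missed the false discovery rate (adjusted p = 0.0517) although the 6 mice, at 2.19 to 3.07, lay below the controls of 3.59, 3.40, 3.8, 3.91 and 3.81. It passed without control replicate 2 (adjusted p = 0.0346) or neutron replicate 1 or 2 (0.032 and 0.046). The 1 Gy x-ray mice of day 3, at 1.33, 2.72, 3.52, 2.80 and 3.08, overlapped with the controls, and the change of -1.01 was not called (adjusted p = 0.188).

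**Figure D2:**
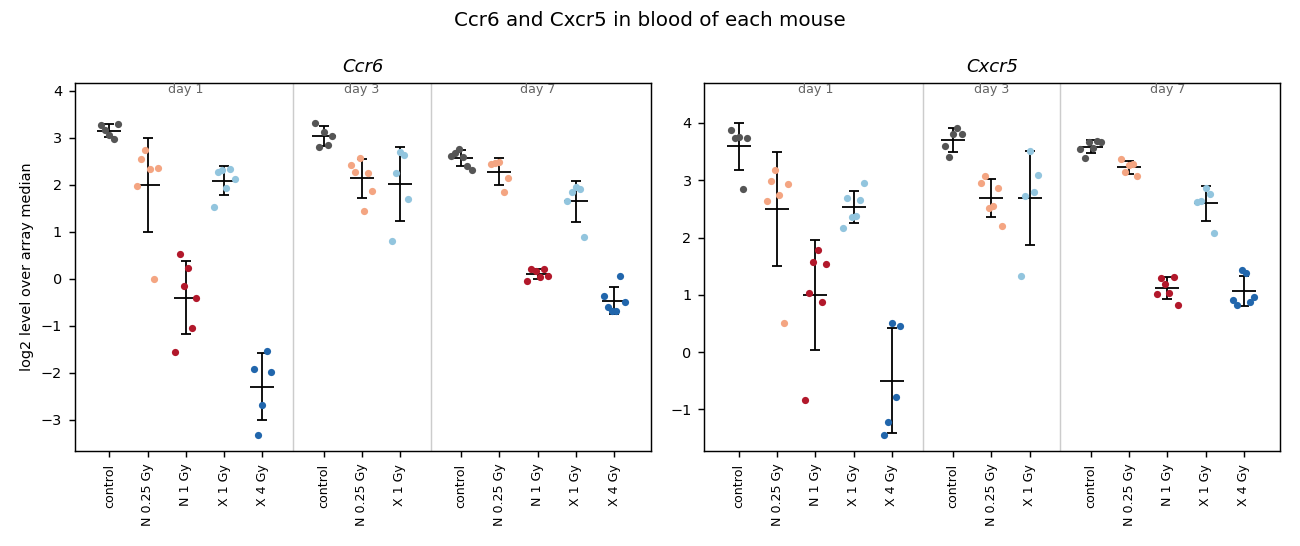
The y axis is the log2 level over the array median of Ccr6 (left) and Cxcr5 (right), each point is 1 mouse, and the horizontal line and bar are the mean and SD of the group, ordered by day and exposure (N, neutrons; X, x-rays). Ccr6 after 4 Gy x-rays lay between -3.33 and -1.54 on day 1 and between -0.69 and 0.06 on day 7, below controls of 2.96 to 3.29 and 2.30 to 2.75.

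The markers of B cells moved with both receptors. Of 10 B cell markers, 10 were called lower on day 1 in mice given 1 Gy neutrons. There were 8 at the equal x-ray dose and 10 at 4 Gy, and on day 7 there were 7, 3 and 10. The shares called over all genes were 13.9, 5.4 and 26.9% on day 1. On day 7 they were 31.4, 2.94 and 13.8%. The mean log2 level of the list was 2.22 to 2.94 in the controls of day 1 against -1.32 to 0.63 after 1 Gy neutrons and -2.15 to -1.02 after 4 Gy x-rays. On day 7 it was 2.36 to 2.65 in controls, 0.43 to 0.97 after 1 Gy neutrons and -0.64 to -0.02 after 4 Gy x-rays. The part of B cell number in the receptor changes was not tested. Reticulocyte markers moved in the same comparisons, lower on day 1 and higher on day 7, beside the same shares of all genes. Of 9, on day 1 there were 1 called lower at 1 Gy neutrons, 6 at 1 Gy x-rays and 7 at 4 Gy, and their mean level was 1.53 to 2.82 in controls, -0.99 to 1.81, -0.86 to 0.94 and -2.27 to -0.07. On day 7 there were 8, 6 and 4 called higher, with 1.67 to 2.45 in controls, 3.87 to 5.17, 2.97 to 3.94 and 2.84 to 3.90. Levels are relative to the array's median gene, and the part of these red cell transcripts in the receptor values was not tested. Among all tested genes, those most like Ccr6 in level over the 72 arrays, which share the same mice, were B3gnt5 (Pearson r = 0.977), H2-Oa (0.967) and Bcl11a (0.966). For Cxcr5 they were an immunoglobulin-region transcript entry, ENSMUST00000103749 (0.982 over 71 arrays), AF138742 (0.98) and Cd79b (0.98), the last a chain of the B cell receptor. Ccr6 and Cxcr5 followed each other with r = 0.941 over the arrays and 0.652 within groups.

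Cxcr3, the receptor for the interferon-induced chemokines Cxcl9, Cxcl10 and Cxcl11 on activated T and NK cells, was read by a probe at chrX:98926920-98926979. Its log2 levels were 0.82, 1.26, 1.27, 0.73 and 1.13 in the controls of day 1 and 1.64 to 2.66 (median 2.11) in the 6 mice given 1 Gy x-rays. All exposed mice were above all controls. The rise was 1.05 (SE 0.195, 2.07-fold higher, adjusted p = 0.00897). On day 7 the controls had 1.25 to 1.82 (median 1.62) and the 6 mice given 4 Gy x-rays 2.35 to 3.70 (median 3.05), again without overlap. That rise was 1.47 (SE 0.208, 2.77-fold higher, adjusted p = 0.000369). The neutron groups did not show a called change, with 0.47 to 2.38 (median 1.57) after 1 Gy on day 1 and 1.2 to 2.02 (median 1.49) on day 7, and both overlapped with their controls. Set directly against 1 Gy x-rays on day 1, Cxcr3 after 1 Gy neutrons differed by -0.57 and was not called either (adjusted p = 0.188). Values after 4 Gy x-rays on day 1 were 2.32, 0.60, 0.69, 1.26 and 1.89. After 1 Gy x-rays on day 7 they were 1.92, 1.51, 2.10, 1.23 and 0.85. On day 3 they ran from 1.34 to 1.68 after 1 Gy x-rays, against 0.77 to 1.41 in controls. All 3 groups overlapped with their controls, and the day 3 change of 0.34 was not called (adjusted p = 0.357).

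Cxcr6, the receptor for Cxcl16 on effector T cells and NKT cells, was read by a probe at chr9:123720719-123720778 and moved at the same points. The controls of day 1 had log2 levels of 1.69, 1.45, 1.82, 1.45 and 1.82, and the 6 mice given 1 Gy x-rays had 2.90 to 4.15 (median 3.30). The groups did not overlap, and the rise was 1.74 (SE 0.227, 3.34-fold higher, adjusted p = 0.00242). On day 7 the controls had 2.16 to 2.87 (median 2.52) and the 4 Gy x-ray group 3.25 to 5.41 (median 4.33), without overlap, a rise of 1.77 (SE 0.292, 3.4-fold higher, adjusted p = 0.00104). A second, overlapping Cxcr6 probe gave 1.58 and 1.85 for these changes. With another background correction, given at the end, both Cxcr6 calls and both Cxcr3 calls were lost. Levels after 1 Gy neutrons, 1.01 to 3.51 (median 2.27) on day 1 and 2.06 to 3.19 (median 2.47) on day 7, spanned those of the controls. The direct difference from 1 Gy x-rays on day 1 was -1.06 and not called (adjusted p = 0.0682). The mice given 0.25 Gy neutrons ran from 0.76 to 3.01 (median 2.5) on day 1. Their change of 0.56 was not called (adjusted p = 0.503). After 4 Gy x-rays on day 1 the mice were split widely, at 3.28, 1.38, 1.48, 2.27 and 3.39, and no change was called.

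**Figure D3:**
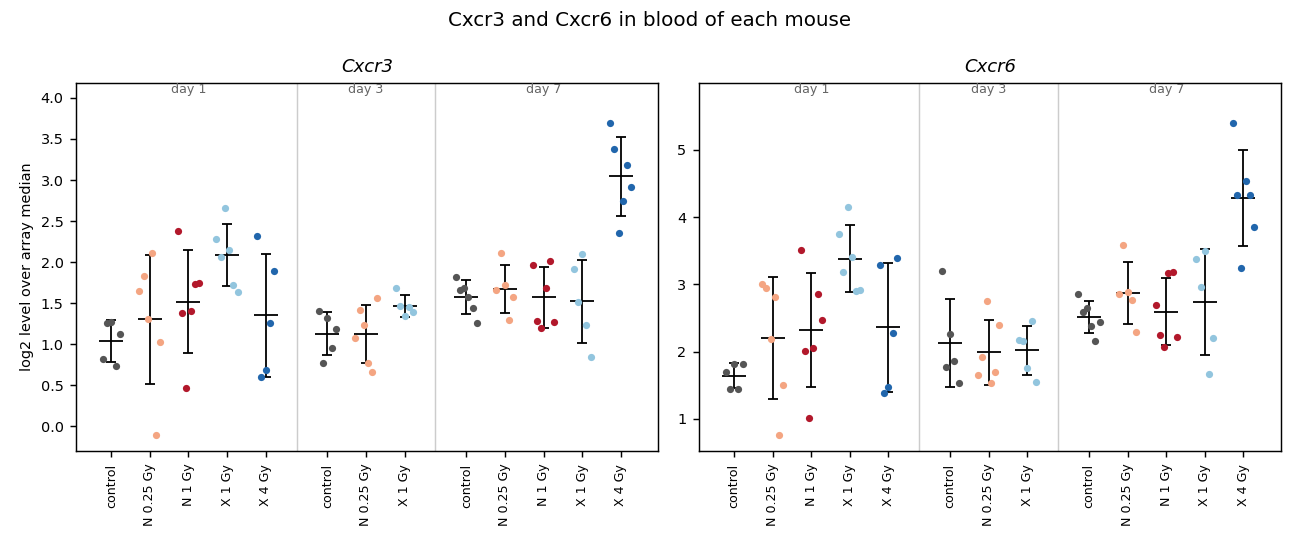
The y axis is the log2 level over the array median of Cxcr3 (left) and Cxcr6 (right), each point is 1 mouse, and the line and bar are the group's mean and SD. In both panels the 4 Gy x-ray group of day 7 (2.35 to 3.70 and 3.25 to 5.41) lies above the day 7 controls (1.25 to 1.82 and 2.16 to 2.87).

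NK cell markers moved in part with these receptors. Of 7 markers, 2 were called higher on day 1 at the lower x-ray dose, against 5.4% of all genes. At the higher dose 4 were on day 7, against 13.8%. The median changes were 0.98 and 0.83. The mean level of the list was 1.19 to 1.47 in the day 1 controls and 1.52 to 2.88 after 1 Gy x-rays, and 1.5 to 2.37 in the day 7 controls and 1.99 to 2.92 after 4 Gy x-rays. The median change of the NK cell markers was also 0.91 after 1 Gy neutrons on day 1, with 0 of 7 called, against 13.9% of all genes. Of 13 T cell markers, 1 was called higher after 1 Gy x-rays on day 1 and 1 lower after 4 Gy x-rays on day 7. The median changes of that list were 0.37 and 0.01. The part of NK or T cell number in the rise of Cxcr3 and Cxcr6 was not tested. Over the 72 arrays the gene most like both receptors was the transcript entry ENSMUST00000103558 (r = 0.887 with Cxcr3 and 0.9 with Cxcr6), and Il12rb1, a chain of the interleukin-12 receptor, was among the 3 most alike for both (0.876 and 0.886). Cxcr3 and Cxcr6 followed each other with r = 0.927, and with 0.871 within groups.

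Ccr9, the receptor for Ccl25 that guides lymphocytes to the small intestine and marks developing T cells, was read at chr9:123690334-123690393. Levels in the controls of day 1 were -0.26, -0.47, -0.30, -1.27 and -0.35. The 5 mice given 4 Gy x-rays had -2.12, -3.66, -2.54, -2.70 and -2.31, below all controls, and the 6 given 1 Gy neutrons had -2.64 to -1.08 (median -1.85), which overlapped with the lowest control. The changes were -2.14 (SE 0.308, 4.4-fold lower, adjusted p = 0.000395) and -1.28 (SE 0.278, 2.43-fold lower, adjusted p = 0.00595). The neutron call of Ccr9 was lost without control replicate 1, 2, 3 or 5 or neutron replicate 1, 2, 4 or 6, with changes of -1.35 to -1.21 and adjusted p of 0.00848 to 0.0193. With 1 Gy x-rays the range of -0.90 to -0.21 lay within that of the controls, with a change of -0.04. On day 7 the 1 Gy neutron group was tight, at -1.16 to -0.94 (median -1.03), and below all controls (-0.93 to 1.06, median -0.04). Its change of -1.01 had an adjusted p of 0.00691 but an unadjusted p over 0.001, short of the call. It passed without control replicate 3 (-1.19, adjusted p = 0.00156). At 0.25 Gy neutrons on day 7 the mice ran from -2.43 to -0.67 (median -0.85) and overlapped with the controls. That change of -1.13 was not called (adjusted p = 0.144). A second Ccr9 probe was well above background on 28 of 72 arrays, among them all 5 controls of day 1 and none of the 11 arrays of 1 Gy neutrons or 4 Gy x-rays of that day. On day 7 it was above background on 2 of the 12 arrays of controls and 1 Gy neutrons, too few for a comparison. T cell markers moved on day 1 too. Of 13, 4 were called lower after 1 Gy neutrons, and 7 lower and 1 higher after 4 Gy x-rays, against 13.9 and 26.9% of all genes. The mean level of the list was 1.54 to 2.08 in controls, 0.46 to 1.68 after neutrons and -0.29 to 1.13 after x-rays. Of 4 plasmacytoid dendritic cell markers, 0 and 2 were called lower in these groups. Their mean level was 2.34 to 2.56 in controls, 0.92 to 3.43 after neutrons and 1.36 to 1.69 after x-rays. After 1 Gy x-rays, where Ccr9 was not called, 2 of these 4 were called lower too (1.13 to 1.92). The part of either list in the fall of Ccr9 was not tested. The genes most like Ccr9 over the arrays were Cdca7 (r = 0.866), Colq (0.831) and Fbxo5 (0.826).

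Ccr1, a receptor of myeloid cells for Ccl3 and Ccl5, was read at chr9:123877790-123877849. The controls of day 1 had log2 levels of -3.34, -2.83, -4.11, -2.93 and -3.57, and the 6 mice given 1 Gy neutrons had -2.10 to -0.33 (median -1.98). All exposed mice were above all controls, with a rise of 1.76 (SE 0.357, 3.39-fold higher, adjusted p = 0.00445). This Ccr1 call was lost without control replicate 1, 3 or 5 or neutron replicate 4, with rises of 1.57 to 1.77 and adjusted p of 0.00681 to 0.0148. Levels after 4 Gy x-rays, -1.70, -2.76, -2.75, 0.08 and -1.63, were also above all controls, but the change of 1.61 was not called (adjusted p = 0.0201). On day 3 the 1 Gy x-ray mice had -1.04, -2.09, -2.04, -2.68 and -1.69 against -2.32, -3.98, -3.92, -3.64 and -3.45 in controls, an uncalled difference of 1.55 (adjusted p = 0.0811) with overlap, which was called without control replicate 1 (1.84, adjusted p = 0.0335). On day 7 the probe was well above background on 2 of 6 arrays of the 1 Gy neutron group, which limits the reading there. The genes most like Ccr1 were C5ar1 (r = 0.92), Cd33 (0.899 over 71 arrays) and Hcar2 (0.896), all known from myeloid cells.

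Ccr2, which lets monocytes leave the bone marrow towards Ccl2, was read at chr9:124022948-124023007. Its levels were 1.43 to 2.42 (median 1.93) in the controls of day 7 and 2.56 to 3.29 (median 2.86) after 4 Gy x-rays. The groups did not overlap, and the rise was 0.96 (SE 0.209, 1.94-fold higher, adjusted p = 0.00527). The Ccr2 call was lost without control replicate 1, 4 or 5 or x-ray replicate 1, 3 or 5, with rises of 0.85 to 0.92 and adjusted p of 0.0101 to 0.0145. On day 1 the same dose had given 0.37, -0.48, -0.14, 1.11 and 0.46 against 1.07, 1.48, 1.02, 1.90 and 1.27 in controls, an uncalled change of -1.09 (adjusted p = 0.0105) that was called without x-ray replicate 4 (-1.30, adjusted p = 0.00283). Ccr2 was thus lower than controls in the mean on day 1 and higher on day 7, and the change of the 4 Gy x-ray effect between these days was 2.04 (SE 0.363, adjusted p = 0.000292). Day 3 levels after 1 Gy x-rays were scattered, at 5.31, 2.55, 2.02, 1.5 and 2.94. Of 7 monocyte markers tested, 3 were called higher after 4 Gy x-rays on day 7, against 13.8% of all genes. The median change over the list was -0.04. The most alike genes were Vim (r = 0.915), Clec4a3 (0.901) and Tnfrsf1b (0.901). Ccr1 and Ccr2 had r = 0.257 over all arrays and 0.683 within groups.

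Ccr3, the eotaxin receptor of eosinophils, was read at chr9:123945225-123945284 and was not called against controls at any point. The nearest was 4 Gy x-rays on day 7, with levels of -1.61 to -0.29 (median -0.85) against -0.72 to 1.14 (median 0.29) in controls and a change of -1.25 (adjusted p = 0.00853, with the unadjusted p over 0.001). These groups overlapped, and the change was called without control replicate 5 (-1.46, adjusted p = 0.00204) or x-ray replicate 3 (-1.38, adjusted p = 0.00779). On day 7 Ccr3 was also lower after 1 Gy neutrons, by 0.88 and not called (adjusted p = 0.0215), but called without control replicate 5 (-1.09, adjusted p = 0.00277). On day 1 the mice given 4 Gy x-rays had 1.38, 0.61, -0.48, 1.01 and 0.25 against 1.55, 2.10, 1.55, 1.33 and 1.59 in controls, an uncalled change of -1.07 (adjusted p = 0.0163). Eosinophil markers gave 2 of 5 called lower after 4 Gy x-rays on day 1 and 1 of 5 on day 7. The shares called over all genes were 26.9 and 13.8%. Genes most like it were Inpp5j (r = 0.891), P2ry14 (0.874) and Cdk5r1 (0.854).

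Cxcr4, the receptor for Cxcl12 that holds leukocytes and their precursors in the bone marrow, was read at chr1:130485079-130485138 and had the narrowest range of group means, 1.24 on the log2 scale. Its changes against controls ran from -1.0 to 0.28 and none was called. In the controls of day 1 its levels were 1.13, 2.15, 0.87, 0.43 and 1.15, and after 4 Gy x-rays they were 0.94, -0.39, -1.35, 0.98 and 0.58, so the groups overlapped. The genes most like it were Orai2 (r = 0.819), Spata2 (0.818) and Rcsd1 (0.789).

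**Figure D4:**
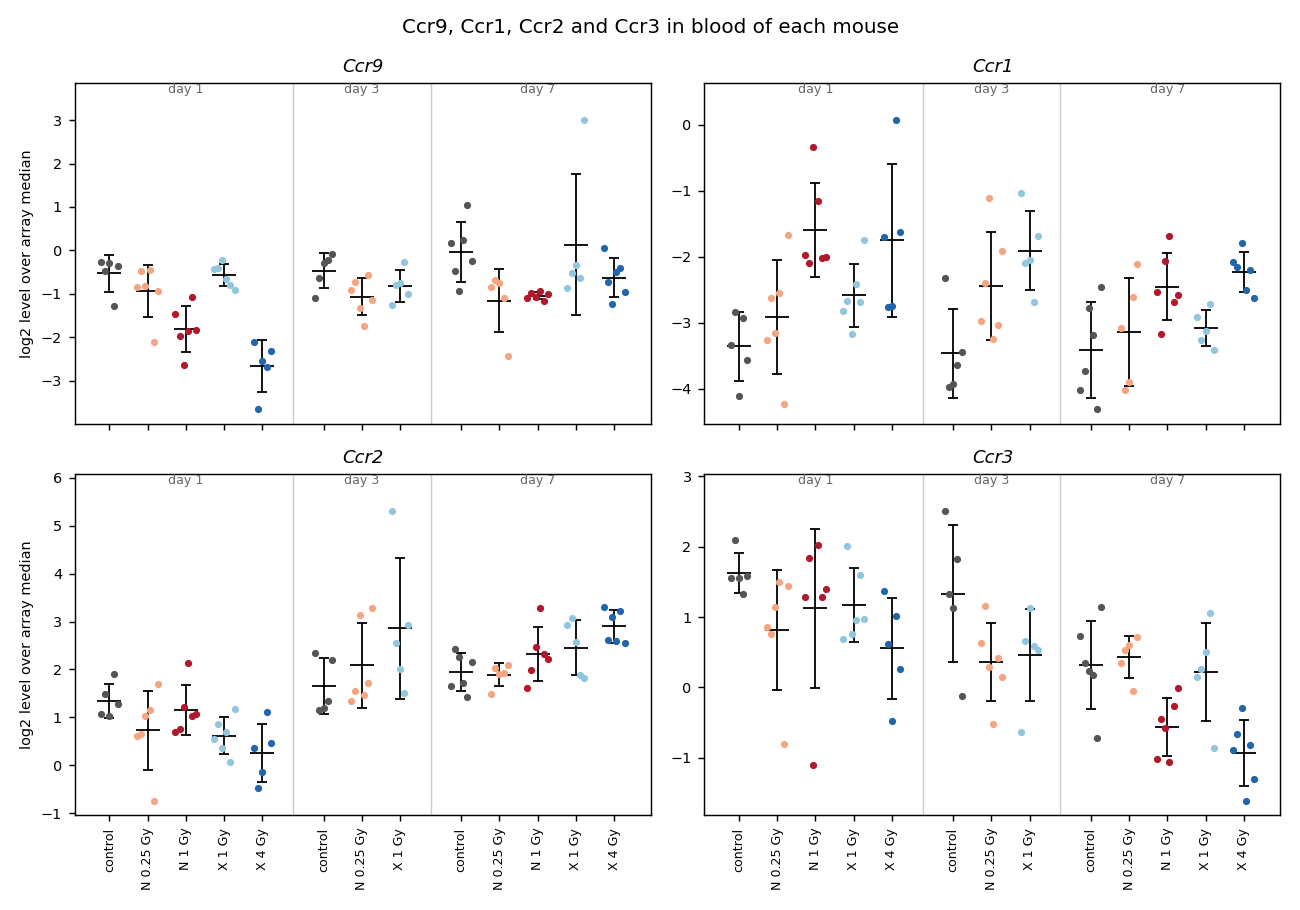
The y axis is the log2 level over the array median of Ccr9, Ccr1, Ccr2 and Ccr3, each point is 1 mouse, and the line and bar are the group's mean and SD. Ccr9 after 4 Gy x-rays on day 1 lies at -3.66 to -2.12, below all controls of that day, and Ccr2 after 4 Gy x-rays on day 7 lies at 2.56 to 3.29, above all controls of that day.

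Neutrons and x-rays were then set against each other directly. The study picked its doses from limited data on how much more effective such neutrons are than x-rays. Its neutron doses were therefore lower, and an equal dose is not an equal expected effect. At the same dose of 1 Gy on day 1, 2 receptors were called, against 8.26% of all genes, and 3 did not overlap, against 10.8%. Ccr6 was lower after neutrons by 2.48 (SE 0.324, 5.6-fold, adjusted p = 0.00131) and Ccr9 by 1.24 (SE 0.233, 2.36-fold, adjusted p = 0.00467). Cxcr5 was lower by 1.54 but not called (adjusted p = 0.0163), and it was called without neutron replicate 1 (-1.17, adjusted p = 0.00593) or 4 (-1.70, adjusted p = 0.0131). On day 7 at 1 Gy, 2 receptors were called, against 16.3%, and 3 did not overlap, against 21.9%. They were Ccr6, lower after neutrons by 1.54 (SE 0.195, 2.91-fold, adjusted p = 0.000893), and Cxcr5, lower by 1.48 (SE 0.17, 2.79-fold, adjusted p = 0.00083).

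Between 1 Gy neutrons and 4 Gy x-rays, doses that differ, none of the 9 was called on day 1, where 0.0101% of all genes were and 4 receptors had an unadjusted limma p under 0.05, and 0 receptors against 2.15% of all genes were free of overlap. Ccr6 was 1.89 higher after neutrons (SE 0.421, adjusted p = 0.154). On day 7, 2 receptors were called, a share below the background of 33%, and 2 did not overlap, against 34.4%. Cxcr3 was lower after neutrons by 1.47 (SE 0.239, 2.78-fold, adjusted p = 0.000257) and Cxcr6 by 1.69 (SE 0.331, 3.22-fold, adjusted p = 0.000963). Cxcr5 differed by 0.05, with a 95% interval of -0.281 to 0.375, and Ccr6 by 0.57 (adjusted p = 0.0048, with the unadjusted p over 0.001), which was called without x-ray replicate 5 (0.67, adjusted p = 0.000842). Both of these turned negative with spike-in centring (Cxcr5 -2.22, Ccr6 -1.70).

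The change of each effect from day 1 to day 7 was tested as an interaction. For 1 Gy neutrons no receptor was called (20.6% of all genes were) and 1 had an unadjusted limma p under 0.05, and for 1 Gy x-rays none was either (6.15%) and 3 had one. Without 1 Gy neutron replicate 2 of day 1, the Ccr6 change of 1.10 became 1.28 and was called (adjusted p = 0.00267). For 1 Gy x-rays Cxcr6 changed by -1.52 and Cxcr3 by -1.10 (adjusted p = 0.0171 and 0.0199), and both were called without x-ray replicate 5 or 6 of day 1 or 1 or 3 of day 7, with adjusted p of 0.00684 to 0.0185. For 4 Gy x-rays 2 were called, near the background of 18%, namely Ccr2, given above, and Ccr6, whose effect was less deep on day 7 by 2.42 (SE 0.326, adjusted p = 2.07e-05). Controls differed between days as well: 3 receptors were called between day 7 and day 1, against 4.44% of all genes, and 3 did not overlap, against 8.8%. Ccr3 was lower on day 7 by 1.30 (adjusted p = 0.0211), Ccr6 lower by 0.59 (adjusted p = 0.0181) and Cxcr6 higher by 0.87 (adjusted p = 0.0132). Leaving out single controls ended the call of Ccr3 (any control of day 1, or replicate 2, 3 or 4 of day 7, adjusted p 0.0188 to 0.0527) and of Ccr6 (replicate 1, 2, 3 or 5 of day 1, or 1, 4, 5 or 6 of day 7, adjusted p 0.026 to 0.0504). The controls of each of these days were scanned on a date of their own, so the day cannot be told apart from the date of scanning.

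Scan dates were shared in part with controls. For 1 Gy neutrons on day 1, 4 of 6 mice were scanned on the controls' date, and within it Ccr6 changed by -3.38, Cxcr5 by -2.70, Ccr9 by -1.46 and Ccr1 by 1.97. On day 7, 1 of 6 mice was, and it gave -2.60 for Ccr6 and -2.58 for Cxcr5. Both dates that neutrons and x-rays at 1 Gy shared on day 7 rested on 1 mouse of a group. They held 1 neutron mouse against 4 x-ray mice, and 4 against 1. They gave -1.53 and -1.75 for Ccr6 and -1.72 and -1.56 for Cxcr5. The date shared on day 1, with 2 neutron mice against 4 x-ray mice, gave -2.71 for Ccr6 and -0.76 for Ccr9. For 1 Gy neutrons against 4 Gy x-rays on day 7 it was 1 mouse against 6, with -1.78 for Cxcr3 and -2.06 for Cxcr6. The 4 Gy x-ray mice and the controls of day 7 lay wholly on different dates, so date and exposure cannot be told apart there, and no x-ray group of 1 Gy, and no 4 Gy group of day 1, shared a date with its controls. With date as a random block, the day 1 calls at 1 Gy x-rays of Ccr6 (adjusted p = 0.061), Cxcr3 (0.0933) and Cxcr5 (0.117) were lost. That of Cxcr6 was kept, but with no shared date this block cannot tell date from exposure. Other calls were lost with date as a fixed block. These were Ccr6 (-2.71, adjusted p = 0.0818) and Ccr9 (-0.76, adjusted p = 0.277) between neutrons and x-rays at 1 Gy on day 1. Cxcr3 and Cxcr6 between 1 Gy neutrons and 4 Gy x-rays on day 7 (adjusted p = 0.0141 and 0.0351) were lost too. All values are relative to the array's median gene, and centring on spike-in RNA instead moved the median of all genes by -1.98 for 1 Gy neutrons on day 7 and by -2.27 for 1 Gy neutrons against 4 Gy x-rays on that day. Under that scaling Ccr2 and Cxcr6, which were not called, lay at -1.69 and -1.98 after 1 Gy neutrons on day 7.

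The other genes of the pathway were counted next. Of 14 other chemokine receptors 11 could be tested. Ccr7, which brings lymphocytes into lymph nodes, was called lower after 1 Gy neutrons (-2.07 on day 1 and -1.28 on day 7) and at 4 Gy x-rays (-3.47 and -1.54). Cxcr2, the neutrophil receptor, was called higher on day 7 in the 1 Gy neutron (1.92) and 4 Gy x-ray groups (1.83), where 4 and 2 of 9 neutrophil markers were also called higher. Cx3cr1, found on patrolling monocytes, fell by 2.13 after 4 Gy x-rays on day 1. Over the 11, on day 1 there was 1 higher and 1 lower in the 1 Gy neutron group, 1 higher in the x-ray group of that dose and 1 higher with 3 lower at 4 Gy. On day 7 the counts were 2 higher and 1 lower, 1 higher, and 3 higher and 1 lower. None was called on day 3 or after 0.25 Gy neutrons. Over all genes 13.9, 5.4 and 26.9% were called in these groups on day 1. On day 7 it was 31.4, 2.94 and 13.8%.

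Of 36 chemokines listed, 22 could be tested. On day 1 the 1 Gy neutron group had 5 called higher, the 1 Gy x-ray group 3 and the 4 Gy group 8. None was called lower. The shares called over all genes were 13.9, 5.4 and 26.9%. Controls of day 7 against those of day 1 also had 6 of the 22 called higher, against 4.44% of all genes. The median level of the list was -0.37 in controls of day 1, 0.27 in those of day 3 and 0.40 in those of day 7. Ligands of the receptors above were among those called after exposure. Ccl2, the ligand of Ccr2, was called higher at 1 Gy neutrons, with all 6 exposed arrays and 1 of 5 controls above background, so the size of its rise is uncertain. After 4 Gy x-rays Cxcl12, the ligand of Cxcr4, rose by 5.35 with 4 of 5 controls above background, and Cxcl13, the ligand of Cxcr5, was called higher with 2 of 5. Ccl24, a ligand of Ccr3, rose by 2.65 on day 7 after 4 Gy x-rays. Ccl20, the ligand of Ccr6 and named here after its values were seen, was above background on 0 arrays, and Cxcl1, a ligand of Cxcr2 not above background in any day 1 control, was at least 2.88-fold higher after 1 Gy neutrons (adjusted p = 0.00601) and at least 6.49-fold higher after 4 Gy x-rays (adjusted p = 0.000132). Hepatocyte transcripts moved with these ligands on day 1. Their mean level was -1.33 to 6.19 in controls, -1.40 to 7.63 after 1 Gy neutrons and 7.07 to 8.27 after 4 Gy x-rays, with 0 of 10 called in either comparison and median changes of 3.02 and 5.00, and their part in the ligand values was not tested. On day 7, 3 ligands were called higher in the 1 Gy neutron group and 2 in the 4 Gy x-ray group. The shares called over all genes were 31.4 and 13.8%. Of 23 signalling genes, all tested, 2 were called higher on day 1 in the 1 Gy neutron group. On that day 1 was higher and 1 lower at 1 Gy x-rays, and 3 were lower at 4 Gy. On day 7 the 1 Gy neutron group had 1 higher and 2 lower. These counts stand beside the same shares of all genes.

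**Figure D5:**
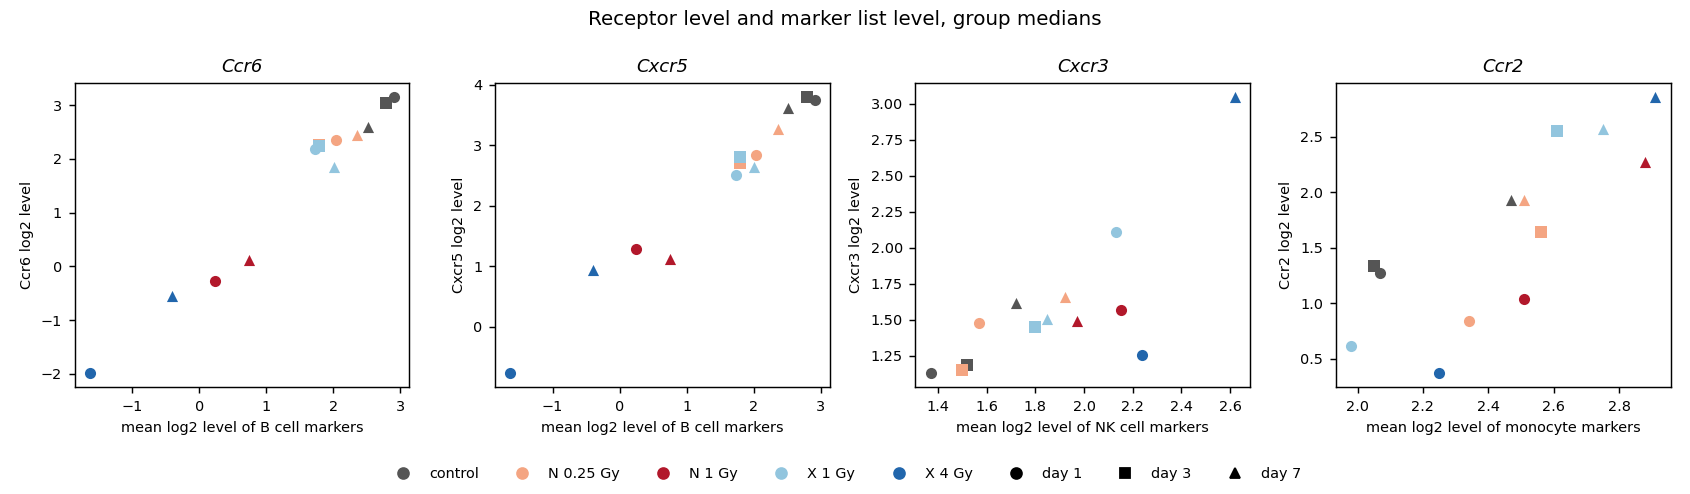
Each point is 1 of the 13 groups, the y axis is the group's median log2 level of the receptor and the x axis its median of the mean log2 level of a marker list (B cells for Ccr6 and Cxcr5, NK cells for Cxcr3, monocytes for Ccr2); colours are exposures and shapes are days. The points share mice and arrays between axes and days, and carry no test. Ccr6 and Cxcr5 are lowest where the B cell list is lowest, after 4 Gy x-rays on day 1.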

How the data were processed

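Blood RNA of 72 mice was hybridised to 1-colour Agilent 4x44K mouse arrays. The authors' deposited intensity per spot is the background-corrected signal of Agilent Feature Extraction 12.0.2. Outlier and non-uniform spots were left out, replicate spots averaged, and log2 intensity centred on the array's median over 19808 of 39429 probes. Each gene was its brightest probe by gene symbol. Genes well above background on at least 25% of arrays were tested with limma 3.58.1 (R 4.3.3), with the groups compared in a fit, for 18 comparisons. The rule named all 9 receptors and, per comparison with controls, at most 3 called pathway genes a direction. Scripts were tested on simulated data. Promoters were read with Python 3.11.15. Members and lists were chosen with earlier results of these data known. The authors' deposited table of log2 values was not used, since its columns followed another sample's array in 60 of 72 cases, 21 of another group. The alternatives were other background, scaling, filter and probe rules, blocks and left-out samples. Array number, with 5 or 6 a group, limits precision. The values of 1 other chemokine receptor are not reported here.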

Additional observations from a re-analysis of the deposited data

Results flagged for a closer look

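A mouse far from the others of its group was found in 14 of 117 sets of receptor and group, where chance gives about 5.85. Of these, 5 came from replicate 5 of the mice given 0.25 Gy neutrons on day 1, in which Ccr3 was at -0.80 (next mouse 0.76), Ccr6 at 0.00 (next 1.96), Ccr9 at -2.10 (next -0.94), Cxcr4 at -1.41 (next 0.25) and Cxcr5 at 0.50 (next 2.65). In the mice given 1 Gy x-rays on day 7, replicate 5 had the lowest Ccr6 (0.88, next 1.65) and the highest Ccr9 (3.01, next -0.33). Among controls of day 1, replicate 4 stood out for Ccr9 (-1.27, next -0.47) and Cxcr5 (2.85, next 3.74), and among controls of day 7 replicate 5 did for Cxcr4 (-0.82, next 0.46). After 1 Gy neutrons on day 1, Ccr2 was at 2.14 in replicate 4 (next 1.21), Ccr3 at -1.10 in replicate 3 (next 1.28) and Cxcr5 at -0.83 in replicate 1 (next 0.87). After 0.25 Gy neutrons on day 7, Ccr9 was at -2.43 in replicate 5 (next -1.10).

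Effects that differed between exposures by a limma test of the difference itself were those of Ccr6 (-2.48) and Ccr9 (-1.24) for 1 Gy neutrons minus 1 Gy x-rays on day 1, Ccr6 (-1.54) and Cxcr5 (-1.48) for the same pair on day 7, and Cxcr3 (-1.47) and Cxcr6 (-1.69) for 1 Gy neutrons minus 4 Gy x-rays on day 7. Between days, the effect of 4 Gy x-rays changed for Ccr2 (2.04) and Ccr6 (2.42), day 7 minus day 1.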

How the results depend on the processing

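The precision is limited by 5 or 6 mice a group and, for Ccr1, by a probe near background. The calls of Ccr6 after 1 Gy neutrons and 4 Gy x-rays on both days and of Cxcr5 after 1 Gy neutrons on day 7 and 4 Gy x-rays on both days were kept in every alternative that could be fitted. With normexp background correction, under which the span from the 10th to the 90th percentile of levels was 1.54 to 7.52 per array in place of 7.87 to 9.17, the number of receptors called became 2 after 1 Gy neutrons on day 1 (Ccr6, Cxcr5), 0 after 1 Gy x-rays on days 1 and 7, 1 after 0.25 Gy neutrons on day 7 (Cxcr5), 2 after 4 Gy x-rays on day 7, 1 for neutrons against x-rays at 1 Gy on day 1, 0 for the change of the 4 Gy x-ray effect and 0 between controls. Among all 19816 genes, normexp called 259, 0 and 41, 120, 247, 18, 379 and 0 in these comparisons, in the same order. Every called rise of Cxcr3 and Cxcr6 was lost with normexp. Adjusted p was 0.343 and 0.22 after 1 Gy x-rays on day 1, and 0.178 and 0.13 after 4 Gy x-rays on day 7. Quantile normalization gave 2 after 0.25 Gy neutrons on day 3, beside 285 genes. With spike-in centring the number was 2 after 1 Gy x-rays on day 1 (Cxcr3, Cxcr6), beside 366 of 19816 genes. On day 7 it was 3 after 0.25 Gy and 8 after 1 Gy neutrons, beside 5150 and 12588 genes. Against x-rays, 1 Gy neutrons gave 1 (1 Gy, day 1) and 9 (4 Gy, day 7), beside 28 and 13985 genes. The changes of the 1 Gy neutron and x-ray effects between days gave 7 and 2, beside 13066 and 2781 genes. Between controls it was 1, beside 758 genes. The reversals came with spike-in centring: Ccr2 (-1.69) and Cxcr6 (-1.98) after 1 Gy neutrons on day 7, Ccr3 (-1.90), Ccr6 (-1.70), Cxcr4 (-1.90) and Cxcr5 (-2.22) for 1 Gy neutrons against 4 Gy x-rays on day 7, and Ccr9 (-2.32), Cxcr4 (-2.05) and Cxcr5 (-2.46) for the change of the 1 Gy neutron effect. The cause was not tested. Centring on the 75th percentile gave 1 between controls, beside 888 of 19816 genes. The study's filter gave 1 after 0.25 Gy neutrons on day 3, beside 127 of 10857 genes. The mean of probes gave 1 there, beside 105 of 19824 genes. No filter gave 1 after 1 Gy x-rays on day 7, beside 415 of 31093 genes. With scan date as a block, 1 was called after 1 Gy x-rays on day 1 (Cxcr6), beside 108 of 19816 genes. After 1 Gy x-rays on day 3 it was 3 (Ccr1, Ccr6, Cxcr5), beside 2236 genes. Between neutrons and x-rays at 1 Gy on day 1 it was 0, beside 0 genes. For 1 Gy neutrons against 4 Gy x-rays on day 7 it was also 0, beside 2649 genes. Date could not be fitted for 4 Gy x-rays on day 7 or for controls between days. The 0.25 Gy neutron groups of days 1 and 7 shared the controls' single date. Against controls, date was a random block for all 1 Gy x-ray groups and for 4 Gy x-rays on day 1. No date was shared there, so that block cannot tell date from exposure. Slide as a random block was chosen after seeing the data. It gave 1 after 1 Gy x-rays on day 3 (Ccr1) and on day 7 (Cxcr5), beside 771 and 304 genes. For 1 Gy neutrons against 4 Gy x-rays on day 1 it gave 2 (Ccr2, Ccr6), beside 2109 genes. The change of the 1 Gy x-ray effect gave 1, beside 742 genes. Replicate numbers did not pair the mice, since correlations of same-numbered deviations ran from -0.67 to 0.72 and 0 of 14 comparisons met the condition. With the number as a replicate block, 1 receptor was called after 1 Gy neutrons on day 1 (Ccr6), beside 787 of 19816 genes. After 1 Gy x-rays on day 7 it was 0, beside 1 gene. Neutrons against x-rays at 1 Gy on day 1 gave 1, beside 768 genes. The change of the 1 Gy x-ray effect gave 3 and controls gave 0, beside 1118 and 0 genes. Leaving out 1 mouse at a time gave 2 to 4 after 1 Gy neutrons on day 1 (lowest without control replicate 1, 3 or 5 or neutron replicate 4), 0 to 1 after each exposure on day 3, 1 to 2 after 1 Gy x-rays on day 7, 0 to 1 and 0 to 2 for the changes of the 1 Gy neutron and x-ray effects, and 1 to 2 between controls.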
